A study of Mus musculus with 3 samples.

Results

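Sarcomere assembly factors are the genes of this account: Lmod2, Lmod3, Myo18b, Mustn1, Smyd1, Unc45b, Xirp1, Xirp2 and Nrap, 9 genes of 18344 that could be named on the arrays. They were chosen by their scaled log2 signals on these same 3 arrays and are given as a list of names, with every non-control probe whose transcript accession belongs to one of them, which gave 12 probes: 3 for Xirp2, 2 for Smyd1 and 1 for each other gene. Values from the contrasts that chose them are given as a description, with no test. Gene expression was measured with 1-colour Agilent whole mouse genome arrays in 3 samples of C2C12. C2C12 is a mouse line of myoblasts that fuse into multinucleated myotubes when serum is reduced. Each group was 1 array and there were no replicates, so no spread between cultures, overlap of groups or p-value can be given, and precision is limited by how few arrays there were. The number of cultures behind an array is not given in the sources used here.

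The neurogenic cellulates were cells derived from myotubes by myoseverin, a compound that acts on microtubules, that had received BIO (6-bromoindirubin-3'-oxime, an inhibitor of GSK-3) and were then held for 7 days in neurogenic medium. Per the labels, that stage included 250 nM reversine for 48 h and 1.5 µM all-trans retinoic acid. The BIO cellulates had the same myoseverin and BIO steps without the neurogenic stage. Their BIO dose was 2.5 µM for 2 days in the sample labels and 10 µM in the series text, and myoseverin was 20 µM in the series text and 30 µM in the protocol. Both cellulate groups came from myotubes formed over 8 days in 2% horse serum with 10 µM AraC. The myoblasts were untreated C2C12 cells. All 3 samples share 1 cell line, and neither intact myotubes nor cellulates lacking BIO were analysed here. Against myoblasts, the effects of differentiation, AraC, myoseverin and BIO therefore cannot be told apart. Nor can those of medium, reversine, retinoic acid and time within the neurogenic stage.

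The sarcomere is the repeating unit of actin and myosin filaments in striated muscle, and its parts do not find their places unaided. Chaperones fold myosin heads, actin nucleators and capping proteins set thin filament length, and scaffold proteins hold young filaments at the membrane until Z-discs mature. Loss of several of these factors leaves muscle with disordered myofibrils, and several are active in both heart and skeletal muscle.

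RefSeq start sites gave 250 bases of upstream sequence (assembly GRCm38.p6) for 6 of the 9 genes. Shown here, 5′ to 3′ on the gene's own strand, are those of Mustn1 and Unc45b, both far higher in cellulates, of Xirp2, which was highest in neurogenic cellulates, and of Smyd1, which differed little. Capitals mark matches on either strand to 6 motifs that muscle or basal promoter factors bind: the MEF2 site, the CArG box, MCAT (CATTCC), the E-boxes CAGCTG and CANNTG, of which the first is a case of the second, and TATAAA.
Mustn1, chr14:30879007-30879256, plus strand: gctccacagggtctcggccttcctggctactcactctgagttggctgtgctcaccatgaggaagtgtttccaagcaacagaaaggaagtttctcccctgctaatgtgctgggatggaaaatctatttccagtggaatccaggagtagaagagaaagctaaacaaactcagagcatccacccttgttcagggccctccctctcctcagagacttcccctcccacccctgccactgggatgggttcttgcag
Unc45b, chr11:82911003-82911252, plus strand: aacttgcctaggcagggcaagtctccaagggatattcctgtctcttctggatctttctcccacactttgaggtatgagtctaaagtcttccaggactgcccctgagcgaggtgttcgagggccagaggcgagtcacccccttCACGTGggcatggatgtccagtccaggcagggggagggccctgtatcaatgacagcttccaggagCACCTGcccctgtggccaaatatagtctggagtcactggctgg
Xirp2, chr2:67445752-67446001, plus strand: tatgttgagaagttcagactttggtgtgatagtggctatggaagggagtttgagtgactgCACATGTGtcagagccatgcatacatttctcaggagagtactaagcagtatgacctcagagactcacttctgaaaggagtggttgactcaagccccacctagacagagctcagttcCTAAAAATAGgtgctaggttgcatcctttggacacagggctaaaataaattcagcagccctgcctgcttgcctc
Smyd1, chr6:71262282-71262531, minus strand: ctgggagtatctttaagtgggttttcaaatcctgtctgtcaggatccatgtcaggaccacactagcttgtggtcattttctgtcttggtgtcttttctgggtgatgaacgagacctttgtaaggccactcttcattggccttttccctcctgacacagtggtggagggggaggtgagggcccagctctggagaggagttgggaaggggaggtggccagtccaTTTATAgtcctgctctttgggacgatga
The Xirp2 window held a MEF2 site, CTAAAAATAG, beginning 74 bases before the start site, a motif found in 2.92% of 32851 promoter windows of the same length. It also held CANNTG matches that begin 190 and 188 bases before the start and overlap each other. In the Unc45b window, CACGTG began 108 and CACCTG 43 bases before the start. The Smyd1 window held TATAAA on the opposite strand 28 bases before the start, and 12.4% of all windows held that motif on some strand. The Mustn1 window held none of the 6. Among the windows not shown, Nrap had CAGCTG 16 bases before its start, a motif in 13.00% of all windows, and Lmod2 had 1 CANNTG match. CANNTG was present in 4 of the 6 windows and in 66.2% of all windows, and neither a CArG box nor MCAT was present in any of the 6. These are letter matches only, in short windows.

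Depth and labels were checked first. Of 43379 non-control spots on each array, 45.7% to 50.7% were well above background, and none was saturated. The 12 member probes carried 0 outlier, background or saturation flags. The scanner software's own error estimate was 10.0% to 19.3% of the signal over the 28 member values well above background. Repeat spots of 122 probes within an array put 95% of differences between single spots within 1.36-fold for BIO cellulates over myoblasts, 1.30-fold for neurogenic over BIO cellulates and 1.32-fold for neurogenic cellulates over myoblasts. Of 7 muscle lineage markers, 6 were well above background on every array, with Myf5 the exception. Their summed signals, in units of each array's 75th percentile, were 90.0 in neurogenic cellulates, 87.8 in BIO cellulates and 140.0 in myoblasts. In myoblasts the sum was mostly Cdh15, at a scaled log2 signal of 7.07, with Itga7 next at 1.48. For BIO cellulates over myoblasts, log2 ratios were 3.61 for Des, 2.52 for Itga7, 1.58 for Chrna1, 0.74 for Pax7, 0.36 for Myod1 and -1.11 for Cdh15. For neurogenic over BIO cellulates they were 0.60 for Des, 1.20 for Itga7, 0.01 for Chrna1, -0.29 for Pax7, -0.40 for Myod1 and -0.60 for Cdh15. Of 7 cardiac muscle markers, 5 were well above background in neurogenic cellulates, 6 in BIO cellulates and 6 in myoblasts. They summed to 2.75, 3.09 and 2.46 units on those arrays. Tbx20 was not well above background on any array, Tbx5 not in neurogenic cellulates, and Myh6 was the 1 cardiac marker at least 2-fold higher in BIO cellulates than in myoblasts. Of 7 neuron markers, 4, 5 and 6 were well above background in neurogenic cellulates, BIO cellulates and myoblasts, and summed to 6.04, 6.53 and 11.1 units, with Snap25 at background level on every array. For BIO cellulates over myoblasts, 1 of 6 compared was at least 2-fold higher and 1 lower, beside 11.2% and 6.01% of all genes. Log2 ratios were 1.02 for Stmn2, 0.37 for Rbfox3, 0.36 for Syt1, -0.72 for Tubb3 and -2.07 for Map2. Elavl4 gave just a bound of 0. For neurogenic over BIO cellulates log2 ratios were 0.86 for Map2, -0.19 for Stmn2, -0.26 for Tubb3 and -0.37 for Rbfox3. Syt1 had a bound of -0.44. All 5 smooth muscle markers were well above background on every array and summed to 290.8, 374 and 360 units in neurogenic cellulates, BIO cellulates and myoblasts. Cnn1 had a log2 ratio of -1.38 for BIO cellulates over myoblasts and Smtn -0.68, but Acta2 had 0.65 and Lmod1 and Myh11 0.17 each. Smtn had -1.52 for neurogenic over BIO cellulates, Cnn1 -0.96, Lmod1 -0.85, Acta2 -0.23 and Myh11 -0.12. These Acta2 values are by its brightest probe. Another Acta2 probe gave 0.07 for BIO cellulates over myoblasts and -1.07 for neurogenic over BIO cellulates, and the remaining one was dim on all arrays. Of 6 fibroblast markers, 3 were well above background on each array, with sums of 145, 193 and 457 units in the same order. Most of each sum was Col1a1, at scaled log2 signals of 7.13, 7.58 and 8.83. Pdgfra, Dpt and Lum were dim on all arrays. Col1a1 had a log2 ratio of -1.25 for BIO cellulates over myoblasts, Dcn 0.02 and Thy1 0.82. Dcn had 2.69 for neurogenic over BIO cellulates, Thy1 -0.14 and Col1a1 -0.45. Of 4 adipocyte markers, 2 were well above background on each array, with sums of 0.762, 0.680 and 0.523 units, and Adipoq and Fabp4 were dim on all. The part of these markers in the results below was not tested. In RNA from a whole culture, more cells of a type and more RNA per cell cannot be told apart.

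Each fold compares signals after division by the 75th percentile of their own array. Where a probe rose well above background on just 1 array of a pair, "at least" marks a lower bound. For the dim array, the bound uses the lowest signal called well above background there, or the probe's own signal where that was higher. The alternative called normexp correction adds an offset of 50 to each signal. By construction that offset draws ratios of dim probes toward no difference.

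The first comparison asked how cellulates given BIO differ from the myoblasts of the same line. Against myoblasts, 8 of the 9 assembly factors stood 2-fold or more higher in BIO cellulates, 5 of them 10-fold or more. Myo18b, Mustn1, Xirp1, Lmod2 and Unc45b stood apart at 27.8-fold or more, Xirp2 at a bound of 7.26-fold, and Nrap and Lmod3 at 2.97-fold and 2.16-fold. Smyd1 had a log2 ratio of 0.00, and 0 of the 9 were 2-fold lower. The background over all 12825 genes was 11.2% for a 2-fold and 0.374% for a 10-fold higher signal, and 6.01% for a 2-fold lower one. The median log2 ratio was 4.80 over the 9 factors and 0.00 over all genes. For 3 of the 9 (Myo18b, Lmod2 and Xirp2) the value is a bound, because the probe was dim in myoblasts. Since these arrays chose the list, nothing is read from its share against that background.

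**Figure D1:**
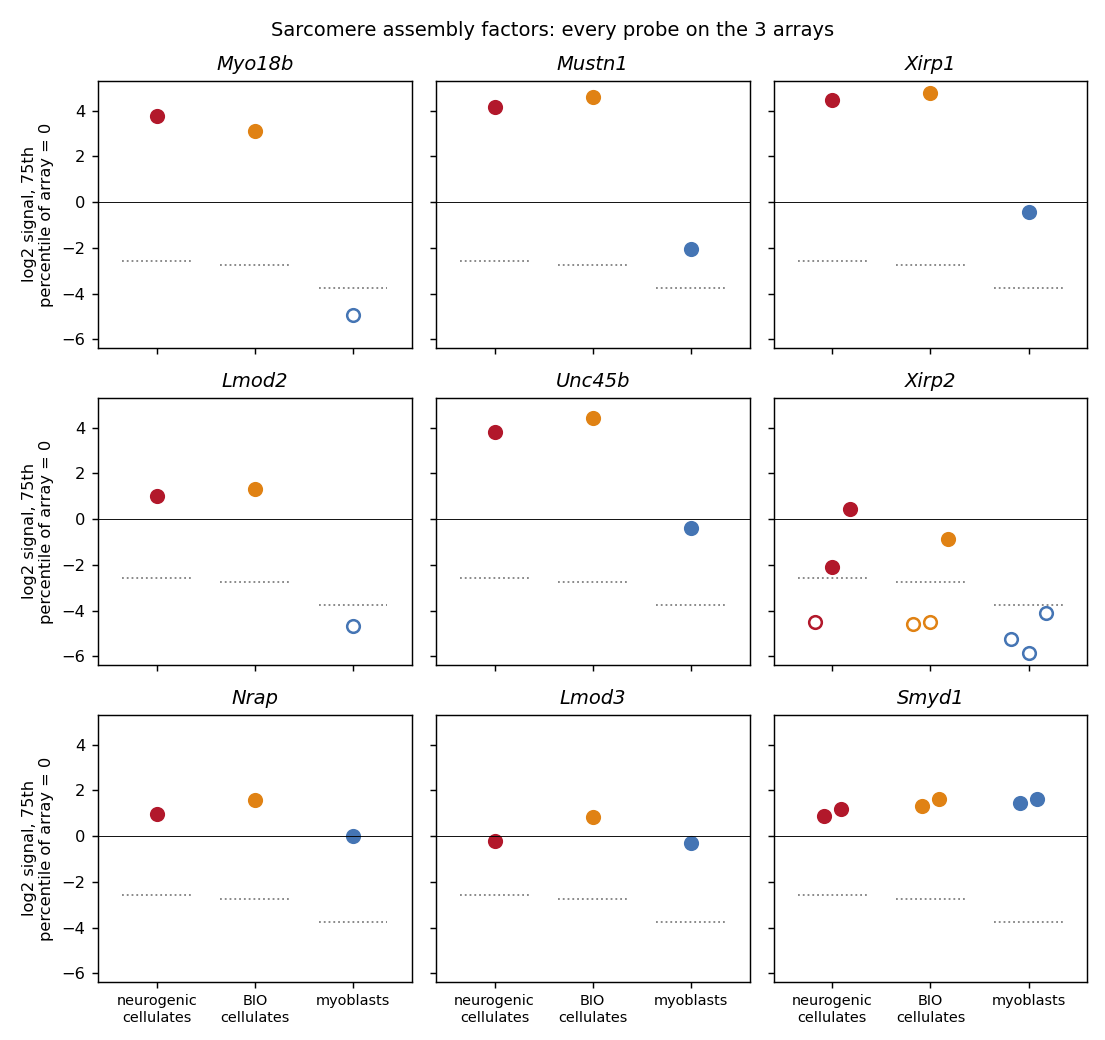
Scaled log2 signal (vertical axis, the array's 75th percentile set to 0) of every probe of the 9 genes in neurogenic cellulates, BIO cellulates and myoblasts, 1 point for a probe on an array. Filled points are well above background, open points are not, and dotted lines mark the lowest signal called well above background on each array. Myo18b, Lmod2 and all 3 Xirp2 probes are open in myoblasts, whereas Smyd1 sits near the same height on all 3 arrays.

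The myosin chaperone and its partner enzyme parted. Unc45b encodes the striated muscle form of the UNC-45 chaperone, which works with Hsp90 to fold the myosin motor. Its processed signal was 2151 intensity units in neurogenic cellulates, 2463 in BIO cellulates and 139.6 in myoblasts. Both cellulate arrays were high and the myoblast array low, at 27.8-fold for BIO cellulates over myoblasts and 17.9-fold for neurogenic cellulates over myoblasts. Smyd1 encodes a muscle methyltransferase that binds myosin and takes part in thick filament assembly. Its brighter probe read 355 units in neurogenic cellulates, 349 in BIO cellulates and 550 in myoblasts, and the second probe 288, 290 and 492 on the same arrays. Before scaling, both probes were thus brightest in myoblasts. After scaling, the brighter probe gave a log2 ratio of 0.00 for BIO cellulates over myoblasts and the second -0.11, within the 1.36-fold limit of repeat spots. The Smyd1 ratio lay between -0.72 and 0.17 over 11 processing settings, the reported one included, so its direction turned with the processing. It was 2-fold higher under 0 of them. Its lowest values were -0.72 with median scaling and -0.65 without scaling, where the median of all genes was -0.65 and -0.59. Relative to that median Smyd1 stood at -0.06 in both.

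The general form of the chaperone, Unc45a, was lower in cellulates than in myoblasts. Its scaled log2 signal was 4.02 in neurogenic cellulates, 4.27 in BIO cellulates and 5.35 in myoblasts, or a log2 ratio of -1.08 for BIO cellulates over myoblasts. Smyd2, a relative of Smyd1 with a methyltransferase domain of the same type, had scaled log2 signals of -0.93 in neurogenic cellulates, -2.91 in BIO cellulates, where it was not well above background, and -3.07 in myoblasts. It was thus at least 3.49-fold higher in neurogenic than in BIO cellulates, by a single probe.

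The leiomodins differed from each other. Lmod2 and Lmod3 encode striated muscle proteins that nucleate actin filaments and keep the pointed ends of thin filaments growing. The Lmod2 probe read 310 units in neurogenic cellulates, 282 in BIO cellulates and 7.11 in myoblasts, where it was dim. Its fold over myoblasts was at least 26.5 in neurogenic cellulates and at least 32.6 in BIO cellulates, log2 bounds of 4.73 and 5.03 that came to 2.43 and 2.62 after normexp correction. The Lmod3 probe read 133 units in neurogenic cellulates, 203 in BIO cellulates and 149 in myoblasts, all well above background. Lmod3 was highest in BIO cellulates: 2.16-fold over myoblasts, with neurogenic cellulates 2.06-fold below BIO cellulates and 1.04-fold over myoblasts. The sign of that last value turned with the scaling (log2 ratio -0.67 to 0.39). Relative to the median of all genes it was 0.12 as reported, with median scaling and without scaling. With no filter on dim probes it was -0.12 relative to that median. Lmod3 fell short of 2-fold over myoblasts in BIO cellulates under 3 of 11 settings, where its lowest log2 ratio was 0.39. With median scaling and without scaling the median of all genes fell too. Relative to it Lmod3 stood at 1.05 in both, against 1.11 as reported. After normexp correction it was 0.74, with the median of all genes at 0.00. Lmod1, the smooth muscle leiomodin, had a log2 ratio of 0.17 for BIO cellulates over myoblasts, inside the limit of repeat spots, and -0.85 for neurogenic over BIO cellulates. Of the tropomodulin genes, which encode thin filament caps related to the leiomodins, Tmod2 had a log2 ratio of 0.59 for BIO cellulates over myoblasts, and Tmod1, Tmod3 and Tmod4 were dim on all 3 arrays.

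**Figure D2:**
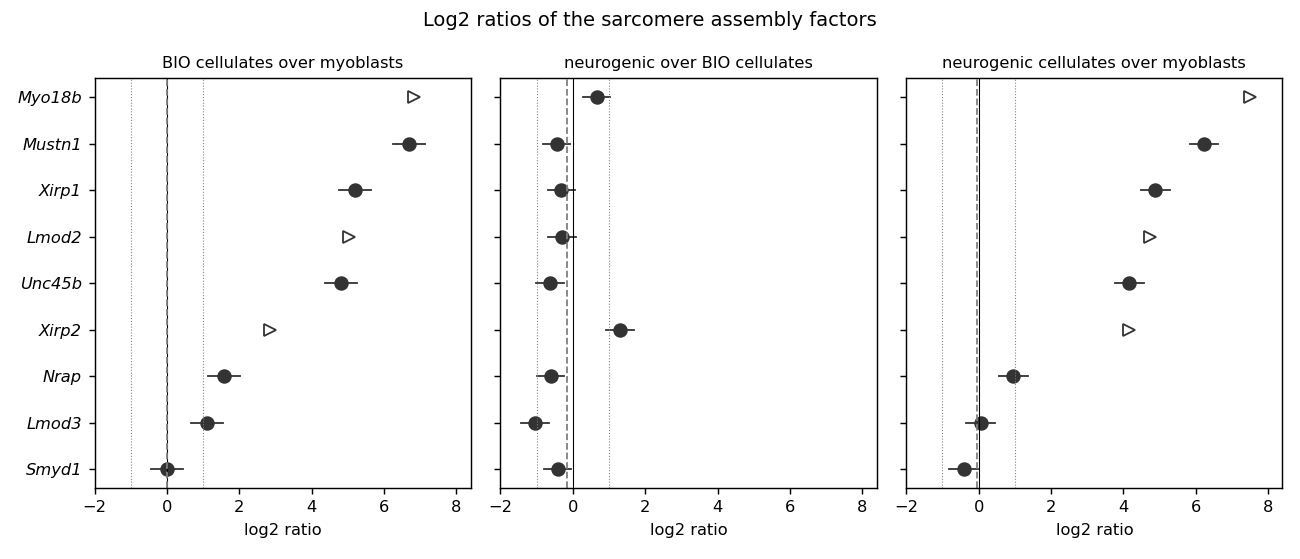
Log2 ratio (horizontal axis) of each assembly factor in the 3 comparisons. Filled points are measured on both arrays, with bars for the 95% limits of repeat spots within an array; open triangles are lower bounds. Dashed lines give the median of all genes and dotted lines a 2-fold difference. Xirp2 and Myo18b are the 2 genes right of 0 for neurogenic over BIO cellulates.

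Myo18b and Mustn1 gave the highest values among the 9. Myo18b encodes an unconventional myosin that striated muscle needs to line up its first sarcomeres in mouse and fish. Its probe read 2117 units in neurogenic cellulates, 989 in BIO cellulates and 5.92 in myoblasts, where it was dim. Signal was thus highest in neurogenic cellulates, at least 181-fold over myoblasts, with BIO cellulates at least 115-fold over myoblasts. After normexp correction these bounds were lower, at 5.09 for neurogenic cellulates and 4.27 for BIO cellulates on the log2 scale, against 7.50 and 6.84. Myo18a, its broadly expressed relative, was not well above background on any array.

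Mustn1 encodes a small protein of muscle, tendon and cartilage. It was measured on all arrays, at 2791 units in neurogenic cellulates, 2813 in BIO cellulates and 43.1 in myoblasts. The cellulate arrays were nearly level before scaling and the myoblast array far below them. After scaling, Mustn1 was 103-fold higher in BIO cellulates and 75.2-fold higher in neurogenic cellulates than in myoblasts. The log2 ratio for BIO cellulates over myoblasts was 6.68, and 4.90 after normexp background correction.

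The scaffold genes were all higher in cellulates than in myoblasts, by different amounts. Xirp1 and Xirp2 encode Xin repeat proteins that bind actin filaments at muscle attachment sites and, in heart, at intercalated discs. Xirp1 read 3385 units in neurogenic cellulates, 3114 in BIO cellulates and 134 in myoblasts. It was 36.7-fold higher in BIO cellulates and 29.5-fold higher in neurogenic cellulates than in myoblasts. Nrap encodes a nebulin-related anchoring protein found in the precursors of myofibrils. Its probe read 301 units in neurogenic cellulates, 339 in BIO cellulates and 179 in myoblasts. Nrap was 2.97-fold higher in BIO cellulates and 1.95-fold higher in neurogenic cellulates than in myoblasts, and its myoblast signal was well above background. It stayed under 2-fold in BIO cellulates over myoblasts in 2 of 11 settings, median scaling and no scaling, where its lowest log2 ratio was 0.85. Relative to the median of all genes Nrap stood at 1.51 in both, against 1.57 as reported.

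Xirp2 had 3 probes to the same transcript, and they did not read alike. The brightest read 209 units in neurogenic cellulates, 62.7 in BIO cellulates and 10.67 in myoblasts, where it was dim. By it, the fold of Xirp2 over myoblasts was at least 17.9 in neurogenic cellulates and at least 7.26 in BIO cellulates, log2 bounds of 4.16 and 2.86 that came to 1.94 and 1.21 after normexp correction. The second probe read 37.0 units in neurogenic cellulates and was dim elsewhere, at 5.10 units in BIO cellulates and 3.17 in myoblasts. It gave neurogenic over BIO cellulates a bound of 0.66 on the log2 scale, and neurogenic cellulates over myoblasts 1.66. The third was dim on all arrays, at 6.82, 4.84 and 4.84 units in neurogenic cellulates, BIO cellulates and myoblasts. Both probes that were measured anywhere were thus highest in neurogenic cellulates. Where each probe lies in the transcript was not analysed here.

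**Figure D3:**
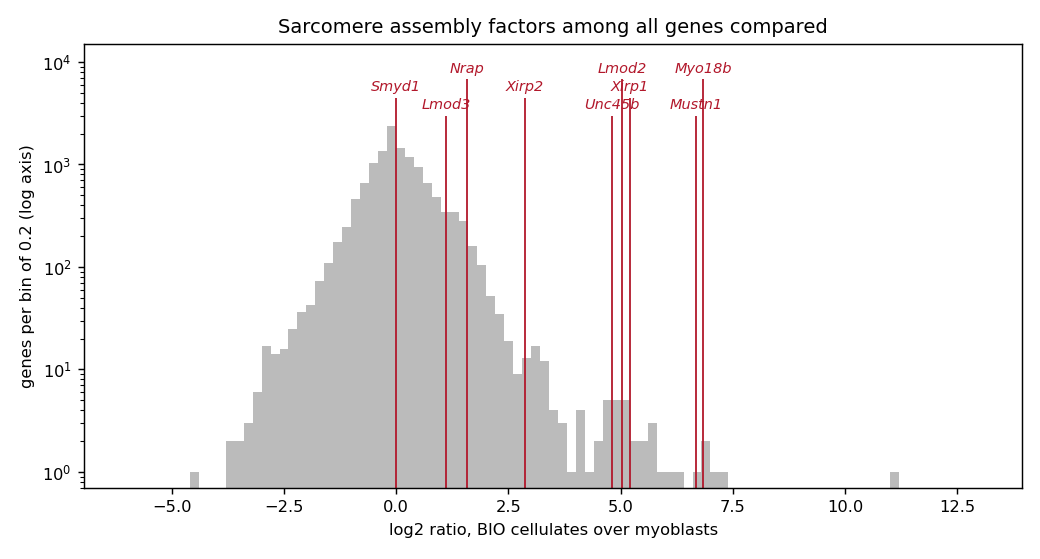
Number of genes (vertical log axis, bins of 0.2) at each log2 ratio of BIO cellulates over myoblasts, for 12825 genes in grey, with the 9 assembly factors as red lines. The values of Myo18b, Lmod2 and Xirp2 are lower bounds. Mustn1, Myo18b, Xirp1, Lmod2 and Unc45b lie in the sparse right tail, and Smyd1 at the centre.

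The second comparison asked what the neurogenic stage added to BIO cellulates. Of the 9 assembly factors, 7 were within 2-fold of BIO cellulates, 1 (Xirp2) was 2.47-fold higher and 1 (Lmod3) 2.06-fold lower. The background over all 12252 genes was 4.16% for a 2-fold higher and 1.8% for a 2-fold lower signal. All 9 genes were well above background on both arrays, so every value is measured. Log2 ratios ran between -1.05 for Lmod3 and 1.30 for Xirp2, with a median of -0.42 over the 9 and of -0.17 over all genes.

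The other gene above 0 was Myo18b, with a log2 ratio of 0.66. The remaining 6 lay between -0.63 (Unc45b) and -0.30 (Lmod2), with Nrap at -0.61, Mustn1 at -0.45, Smyd1 at -0.42 and Xirp1 at -0.32. Lmod2 and Xirp1 were inside the 1.30-fold limit of repeat spots. In all, 7 of the 9 lay below 0, and so did 67.7% of all genes. These small negative values depend on the scaling. Without scaling, or scaled on E1A spike-in controls, the median of all genes was higher by 0.42 or 0.34. Lmod2, Xirp1 and Smyd1 then came to 0.14, 0.12 and 0.02 without scaling, and to 0.06, 0.04 and -0.06 with spike-ins. Xirp2 and Myo18b stayed above 0 and Lmod3, Nrap, Unc45b and Mustn1 below 0 under each of 11 settings. Yet Mustn1, Nrap and Unc45b came to just -0.01, -0.17 and -0.20 without scaling, and to -0.09, -0.25 and -0.28 with spike-ins. Those values lay inside the 1.30-fold limit of repeat spots. Relative to the median of all genes, Mustn1, Nrap and Unc45b stood at -0.26, -0.42 and -0.44 under both settings. As reported, they stood at -0.28, -0.43 and -0.46 relative to it. The median of the 9 relative to all genes was -0.22 under both, against -0.24 as reported. The Xirp2 ratio was 0.73 after normexp correction, short of 2-fold. Lmod3 was also short of 2-fold under 4 settings, with a log2 ratio of -0.61 without scaling.

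The third comparison set neurogenic cellulates against myoblasts, and it shares the myoblast array with the first and the neurogenic array with the second. At least 2-fold higher were 6 of the 9, all of them at least 10-fold higher: Myo18b, Mustn1, Xirp1, Lmod2, Unc45b and Xirp2. The background over all 12851 genes was 12.1% for a 2-fold and 1.03% for a 10-fold higher signal. A 2-fold lower signal was seen in 0 of the 9 and in 10.0% of all genes. With median scaling Smyd1, at -1.15, was 2-fold lower, but the median of all genes was then -0.79. Relative to that median Smyd1 stood at -0.36, as it did in the reported setting. Nrap, Lmod3 and Smyd1 were within 2-fold, with log2 ratios of 0.96, 0.06 and -0.42. Nrap passed 2-fold under 3 of 11 settings, at up to 1.29. It had a log2 ratio of 0.23 with median scaling, or 1.02 relative to the median of all genes. The median log2 ratio was 4.16 over the 9 factors and -0.06 over all genes. Of the 6 genes at least 10-fold higher, 3 (Myo18b, Lmod2 and Xirp2) were dim in myoblasts, while Nrap, Lmod3 and Smyd1 were well above background in myoblasts.

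Genes linked to the assembly factors were read from 4 lists. Relatives of the factors in the same protein families gave 8 genes that could be compared of 14. In BIO cellulates over myoblasts 1 of these was 2-fold or more higher and 2 were lower by as much, beside 11.2% and 6.01% of all genes, with a median log2 ratio of -0.21. The higher one was Neb, the giant thin filament protein nebulin and a relative of Nrap, with a log2 ratio of 4.28 by its brightest probe and between 2.91 and 3.93 by the other 4. The lower ones were Lasp1 (-1.20), a small actin-binding relative of nebulin, and Unc45a. The other 3 Lasp1 probes gave -1.17, -0.20 and -0.04, so 2 of 4 lay inside the limit of repeat spots. In neurogenic over BIO cellulates 1 of 8, Smyd2, was at least 2-fold higher and 0 were lower, beside 4.16% and 1.8% of all genes, and Neb had a log2 ratio of 0.80.

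Partners and helpers, which include Kelch proteins, ubiquitin ligases, chaperones and formins, gave 21 genes of 25 in BIO cellulates over myoblasts. Of these, 6 were at least 2-fold higher and 0 lower, beside 11.2% and 6.01% of all genes, with a median log2 ratio of 0.46. Csrp3, the muscle LIM protein of the Z-disc, had a log2 ratio of 4.74. Trim54, a muscle RING-finger ligase that binds microtubules, had 2.98, and Klhl41, a Kelch protein that binds Nrap, had 2.37. Fhod3, a formin that builds sarcomeric actin, was at least 6.85-fold higher. In neurogenic over BIO cellulates 2 of 23 were at least 2-fold higher and 3 lower, beside 4.16% and 1.8% of all genes, with a median of -0.38. The co-chaperone gene Bag3 had a bound of 1.69 on the log2 scale, Fhod3 a bound of -1.19, and the small heat shock gene Cryab a log2 ratio of -1.14 (-0.99 by its second probe). The Cryab probes opposed each other in BIO cellulates over myoblasts, at 0.90 and -0.61.

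**Figure D4:**
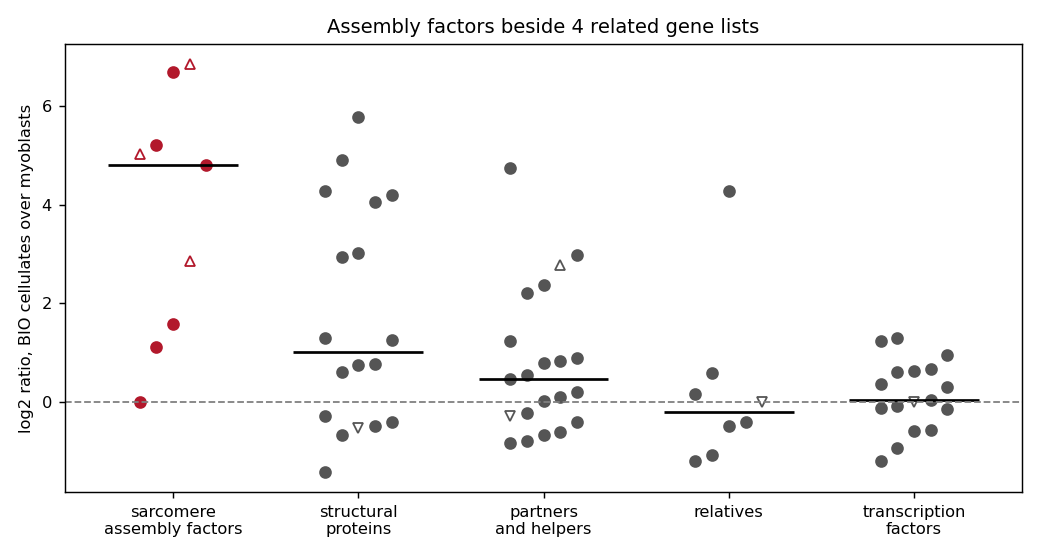
Log2 ratio of BIO cellulates over myoblasts (vertical axis) for the 9 assembly factors and 4 related lists, 1 point for a gene. Circles are measured on both arrays, upward and downward triangles are bounds, black lines are medians and the dashed line is the median of all genes. Medians are 4.80 for the assembly factors, 1.01 for structural proteins, 0.46 for partners, -0.21 for relatives and 0.05 for transcription factors.

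Structural proteins that the factors fold, cap or bind gave 18 genes of 19 in BIO cellulates over myoblasts. At least 2-fold higher were 9, of which 5 at least 10-fold, and 1 was at least 2-fold lower, with a median log2 ratio of 1.01. Over all genes these shares were 11.2%, 0.374% and 6.01%. Skeletal actin Acta1 had a log2 ratio of 5.78, embryonic myosin Myh3 4.91, Neb 4.28 and the titin gene Ttn 4.20 by its brightest probe. Of the other 7 Ttn probes, 1 gave 4.45, 4 gave bounds between 1.74 and 3.70, and 2 were dim on both arrays. In neurogenic over BIO cellulates 4 of 17 were at least 2-fold higher and 1 lower, beside 4.16% and 1.8% of all genes, with a median of -0.09. The fetal myosin gene Myh8 and the fast myosin gene Myh2 had log2 ratios of 1.41 each and the fast Z-disc actinin gene Actn3 of 1.38. Both myosin values rest on a single probe, and the other probes of these myosin genes were dim on both cellulate arrays. The Myh2 probe read 26.4 units in BIO cellulates, where the lowest signal called well above background was 17.3.

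Of the muscle transcription factors, 17 of 19 could be compared in BIO cellulates over myoblasts. There 2 were at least 2-fold higher and 1 lower, near the background of 11.2% and 6.01% of all genes, with a median log2 ratio of 0.05. Mef2a and Mef2d, which encode factors that bind MEF2 sites, had log2 ratios of 1.29 and 1.24, Mef2c 0.96, and Tead2, whose product binds MCAT sites, -1.19. In neurogenic over BIO cellulates the median over 17 genes was -0.10. There Myog, the myogenic regulator of terminal differentiation, had a log2 ratio of 0.81 and Mef2d of -0.71.

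For the 6 factors well above background on all 3 arrays, the nearest genes were sought among 10662 others, by distance over the log2 ratios of BIO cellulates over myoblasts and of neurogenic over BIO cellulates. This rests on 3 arrays, 1 of which enters both ratios, and is a description only. Mustn1 lay nearest to Tnnt3, the fast troponin T gene (distance 0.27), then Cox6a2 and Akr1c18. Unc45b lay nearest to Dhrs7c (0.08), Akr1c19 and Tnni2, and Xirp1 to Tnni2, the fast troponin I gene (0.37), Hrc and Ryr1, the calcium release channel gene. Nrap was nearest to Retn, Chrna4 and Zmynd12, and Lmod3 to Tspan33, Pla2g2f and Avpi1. For Smyd1, the nearest were Tmem198b, Slc34a3 and Ryk, but 1404 genes lay within 0.25 of it, compared with 63 for Nrap, 16 for Lmod3, 2 for Unc45b and 0 for Mustn1 and Xirp1.

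**Figure D5:**
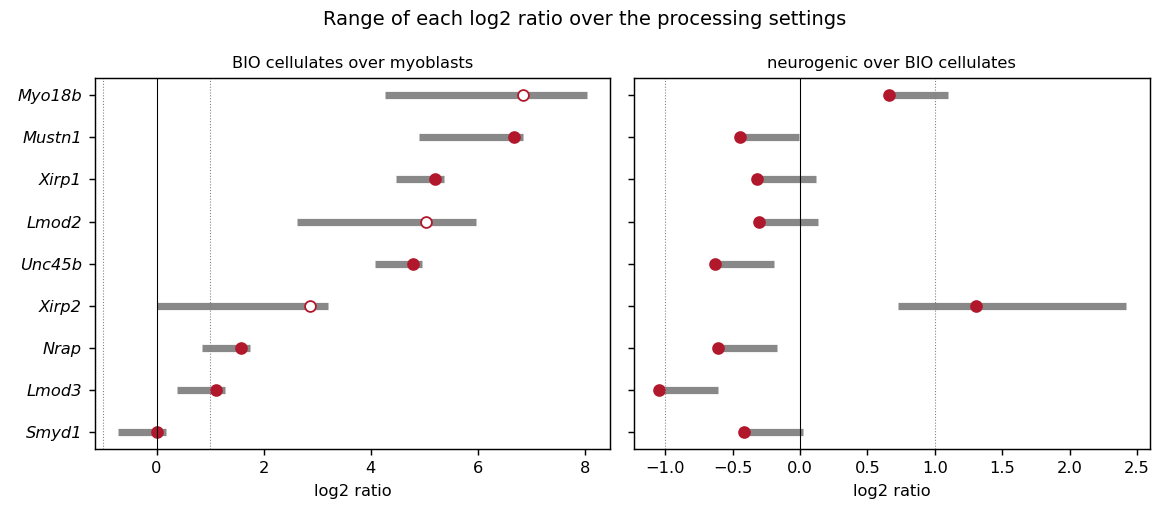
Range of each log2 ratio (grey bars, horizontal axis) over the processing settings that gave a value, with the reported ratio as a red point, open for a bound. Dotted lines mark a 2-fold difference. For BIO cellulates over myoblasts, the bars of Myo18b, Mustn1, Xirp1, Lmod2 and Unc45b lie wholly above 2-fold, while those of Nrap and Lmod3 cross it. The bar of Xirp2 there reaches 0 when the median over its probes is taken, because the middle probe was dim in BIO cellulates and in myoblasts. That 0 is a bound, not a measured lack of difference. For neurogenic over BIO cellulates, the Xirp2 bar runs to 2.42 by the same median, a value that uses the dim signal in BIO cellulates.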

How the data were processed

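Cy3-labelled RNA (200 ng, per the labels) of 3 samples was read on 1 slide. The linear intensity of each spot on array design 014868, background-subtracted and detrended, came from Feature Extraction version 10.7.3.1 by Agilent, per the file headers. The authors' deposited table holds log2 values equal to that log2 intensity plus 0.23 (neurogenic), 0.67 (BIO) and 0.00 (myoblasts); column medians were 7.88, 7.77 and 7.42. Direction follows the intensities and genes are not centred; how the constants were chosen is not given in the sources used here.

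Outlier spots were left out, each array's 75th percentile was subtracted from its log2 intensities (it was 156, 115 and 181 units in neurogenic cellulates, BIO cellulates and myoblasts), and a gene took its brightest probe. Of 41174 probes, 26910 were named through RefSeq accessions (GRCm38.p6). The headers name build mm9, so apart from RefSeq's own promoter windows no coordinates are given. Genes whose chosen probe was dim while another was bright were left out. Normexp (limma 3.58.1, offset 50) used spot medians, the means being absent. Ratios and bounds were tested on simulated data. The members, lists and tests were chosen with earlier results of these data known. All 9 members are named. Of each list, the 4 largest log2 ratios of BIO cellulates over myoblasts and the 3 largest of neurogenic over BIO cellulates are named by size of change, plus Lmod1, Myo18a, Unc45a and Smyd2, and the 3 nearest patterns. Genes outside that rule (Tmod1, Tmod3, Tmod4 and the cell type markers) were named after their values were seen. One gene that this rule names is not reported here. Protein sequences were not used here. Python 3.11.15 and R 4.3.3 were used.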

Additional observations from a re-analysis of the deposited data

How the results depend on the processing

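With 1 array a group, no replicate could be left out. No paired analysis was possible because each group was 1 array. No scaling and E1A spike-in scaling were chosen after seeing the data. For BIO cellulates over myoblasts, the median log2 ratio of the 9 genes was 4.08 with median scaling, 4.49 after quantile normalisation, 2.62 after normexp correction, 4.14 without scaling, and 3.18 and 3.19 over the 6 genes measured on both arrays and in the deposited table, where 5 were at least 2-fold higher. For neurogenic over BIO cellulates it was 0.022 without scaling and -0.058 with spike-ins. Under both, 2 genes (Xirp2 and Myo18b) were at least 2-fold higher, against 0 after normexp correction. Relative to the median of all genes, the median of the 9 was -0.22 under both scalings, against -0.24 as reported. For neurogenic cellulates over myoblasts it was 3.43 with median scaling, 4.49 with the percentile over bright probes, 2.43 after normexp, 4.51 with no filter on dim probes, 3.95 without scaling, 4.43 with spike-ins, and 2.56 and 2.58 over the 6 genes measured on both arrays and in the deposited table, where 3 were at least 2-fold higher. No member's ratio of at least 2-fold changed sign. Xirp2 in BIO cellulates over myoblasts gave just a bound of 0 by the median over its probes, because the middle probe was dim on both of those arrays. Among all genes 2-fold different, the share higher in BIO cellulates than in myoblasts was 65.1%, but 9.07% with median scaling, 11.1% without scaling, 29.1% after normexp, 50.4% after quantile normalisation, 77.1% with the bright-probe percentile and 81.0% unfiltered. Higher in neurogenic than in BIO cellulates were 69.9%, but 82.1% with that percentile, 94.4% without scaling and 91.9% with spike-ins. Higher in neurogenic cellulates than in myoblasts were 54.7%, with a range of 11.5% to 77.7%. Median scaling moved the median of all genes by -0.65 in BIO cellulates over myoblasts, and 6 of the 9 factors were still at least 2-fold higher. Myoblast signals of Myo18b, Lmod2 and Xirp2 lay below detection, so their folds have no upper limit here.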
